A study of Mus musculus with 4 samples.

Results

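The angiomotin family is a set of 3 scaffold proteins of cell junctions, encoded in the mouse by Amot, Amotl1 and Amotl2. The members were taken by gene family, as the rows whose Ensembl identifiers carry these symbols, and all 3 were found among the 34615 gene rows (Amot ENSMUSG00000041688 on chromosome X, Amotl1 ENSMUSG00000013076 and Amotl2 ENSMUSG00000032531 on chromosome 9). All 3 passed the filter on low counts.

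RNA was sequenced from basal cells of mouse mammary outgrowths, the outer epithelial layer that contracts around the ducts and can regrow a gland after transplantation. There were 2 libraries from WT;RosamTmG/mTmG cells (WT) and 2 from miR-205fl/fl;RosamTmG/mTmG cells (KO). Cells of both genotypes carried the mTmG reporter, were given Cre by adenovirus (Ad-cre) and were transplanted into SCID-Beige hosts, immunodeficient mice aged 3 weeks. Outgrowths were collected after 8 weeks and pooled (40 outgrowths, with no split by genotype given), and GFP+ CD24+ CD49f high cells were sorted. The GFP gate selects cells in which Cre recombined the reporter, and the virus delivers Cre without restriction to a cell type. The series title names YAP and Wnt signaling, and the comparison of KO with WT addresses which transcripts differ when basal cells lack miR-205.

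Angiomotins hold the transcriptional coactivators YAP and TAZ at junctions and on actin filaments, out of the nucleus. They do so through short proline-rich motifs that the WW domains of YAP bind, and the Hippo kinases LATS1 and LATS2 phosphorylate them. Amot was first described through its binding of angiostatin in endothelial cells, Amotl1 as a protein of tight junctions, and Amotl2 is itself a commonly used YAP/TAZ target gene. A microRNA pairs through its seed, bases 2 to 8, with sites in the 3' UTR of messenger RNAs and lowers their stability or translation. miR-205 is an epithelial microRNA abundant in basal mammary cells, and Amot has been published as one of its targets.

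Each member held 1 match to the miR-205-5p seed in its longest 3' UTR, and the 3 matches were of different classes. The mature microRNA and the sites are shown so that the match in Amot, the published target, can be compared with those in its relatives. The microRNA comes from RefSeq (GRCm38.p6) with the seed in capitals, and the sites come from GENCODE M21 transcripts (GRCm38) with the bases that match the seed, or the seed and a following A, in capitals. All are written 5′ to 3′ on the strand of the RNA.
miR-205-5p: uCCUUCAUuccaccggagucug
Amot site: gtgactgttgtcttaATGAAGG
Amotl1 site: gtccttgtaattctctTGAAGG
Amotl2 site: cccctccgtcctgccTGAAGGA

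The Amot site was a 7mer-m8, a match to all of bases 2 to 8, at chrX:145447115-145447121 on the minus strand. It lay at bases 2880 to 2886 of a 3' UTR of 3576 bases and was present in 3 of the 4 annotated Amot 3' UTRs. The Amotl2 site was a 7mer-A1, a match to bases 2 to 7 followed by an A, at chr9:102731993-102731999 on the plus strand. It lay near the stop codon, at bases 287 to 293 of 1712, and in all 3 annotated Amotl2 3' UTRs. The Amotl1 site was a 6mer, the weakest class counted, at chr9:14545463-14545468 on the minus strand, at bases 2324 to 2329 of 5826. Such matches were common. Among 12630 tested genes with an annotated 3' UTR, 12.1% held an 8mer (ATGAAGGA) or 7mer-m8 (ATGAAGG), 21.9% held one of these or a 7mer-A1 (TGAAGGA), and 37.8% held at least the 6mer (TGAAGG). The UTRs of all 3 genes were longer than the median of 1200 bases of those genes. A match is a description of sequence and was not tested as a binding site.

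**Figure D1:**
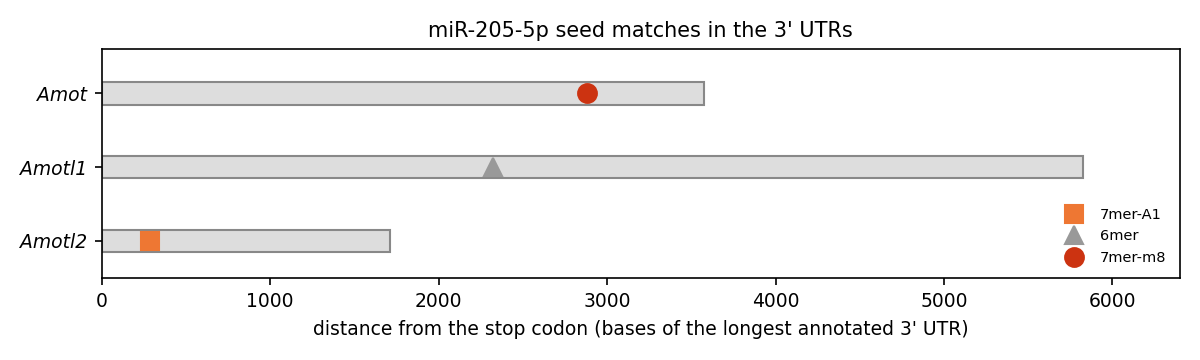
Longest annotated 3' UTR of each member (grey bar, x axis in bases from the stop codon) with its miR-205-5p seed match, coloured by class. The Amot and Amotl2 matches are of 7 bases and the Amotl1 match is of 6 bases. The Amotl2 match lies 287 bases from the stop codon and the Amot match 2880.

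The libraries held 47953972 to 60030932 gene counts, and KO replicate 2 stood apart from the other 3. It had a count for 12679 genes, against 18027 to 18897 in the others, and no count for 40.1% of genes at 1 to 5 CPM (counts-per-million) in WT, against 0.228% in KO replicate 1. Fold changes of the members and counts over gene lists are therefore given with and without it. Mir205 had 0 counts in all 4 libraries, so the genotypes rest on the labels. Basal markers were abundant, with Acta2, smooth muscle actin, at 2330 to 3706 CPM, Itga6, the sorted antigen CD49f, at 2020 to 2636 CPM, and Myh11, smooth muscle myosin, at 1228 to 1854 CPM. Krt14 was not analysed here. Nothing states that libraries of a genotype came from separate animals, so the p-values below measure only the spread between these libraries. In sorted bulk RNA, fewer cells that express a gene and less of its RNA per cell cannot be told apart.

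Amotl1 was by far the most abundant angiomotin of basal cells, and its level was nearly the same in both genotypes. The WT libraries had 913 and 1066 CPM and the KO libraries 1119 and 1000 CPM, values scaled by TMM, edgeR's correction for library composition. The groups overlapped, since KO replicate 2 lay between the WT libraries. The KO mean of 1059 ± 84.5 CPM was 1.07 times the WT mean of 989 ± 108 CPM (SD, n = 2). The log2 fold change was 0.10 ± 0.19 (SE), with a 95% interval of -0.38 to 0.58, so the data allow KO levels from 0.767 to 1.5 times those of WT (edgeR quasi-likelihood test, Benjamini-Hochberg adjusted p = 0.9989). The difference was smaller than the spread between the WT libraries. Without KO replicate 2 it was 0.18 ± 0.13 (edgeR adjusted p = 0.9998). Its direction turned to -0.0069 with upper quartile scaling and to -0.02 with scaling to the total gene count. Amotl1 had a higher mean CPM than 99.4% of the 15364 tested genes.

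Amotl2 was the member whose KO libraries both lay above both WT libraries. Its fold change was the largest of the 3 with all 4 libraries, but that of Amot was larger without KO replicate 2 (0.81 against 0.65) and without WT replicate 2 (1.06 against 0.83). The WT libraries had 25.5 and 26.0 CPM, KO replicate 1 had 40.4 CPM and KO replicate 2 had 50.0 CPM. The WT libraries were within 1.02 times of each other, while KO was 1.57 and 1.94 times the WT mean. The KO mean was 45.2 ± 6.84 CPM and the WT mean 25.8 ± 0.367 CPM (SD, n = 2). The log2 fold change was 0.81 ± 0.39 (SE), with a 95% interval of -0.20 to 1.82, and it did not pass the test over all genes (edgeR quasi-likelihood test, adjusted p = 0.9989; the unadjusted p of that model was 0.094). Groups parted in the same direction in 13.2% of tested genes and in the opposite direction in 19.2%, so this order of 4 libraries is common in the table. Without KO replicate 2 the log2 fold change was 0.65 ± 0.31 (edgeR adjusted p = 0.9998). A higher fold change than that of Amotl2 was found in 12.6% of tested genes with all 4 libraries and in 11.8% without KO replicate 2. Without KO replicate 1 it was 0.95 ± 0.31 (edgeR adjusted p = 0.05092), a fit in which 34.9% of all tested genes were called and the only KO library was the one with low detection.

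Summed fibroblast markers had the same order of libraries as Amotl2, at 528.3 and 588.4 CPM (WT) against 605.4 and 790.2 CPM (KO). Of 9 measured fibroblast markers 5 had a positive fold change and 4 a negative one, which turned to 4 and 5 without KO replicate 2 (median 0.16 and -0.08). Fbn1, a microfibril protein, stood at 384 and 407 CPM (WT) against 399 and 487 CPM (KO), and Dcn, which encodes decorin, at 89.5 and 106 CPM (WT) against 153 and 221 CPM (KO). Fbn1 and Dcn made up most of the sum in every library, and Fbn1 overlapped between genotypes. Col1a2, a collagen I chain, stood at 28.9 and 29.4 CPM (WT) against 20.9 and 30.9 CPM (KO). Dpt and Fap were at 0 in KO replicate 2 and Pi16 in WT replicate 2, and Col1a1 was not analysed here. Whether fibroblast RNA had a part in the Amotl2 difference was not tested. Summed basal markers were also above WT in both KO libraries, at 9583.3 and 9249.8 CPM (WT) against 11786 and 9809.1 CPM (KO). Of 8 measured basal markers 5 had a positive fold change and 3 a negative one (7 and 1 without KO replicate 2). Both KO libraries lay above both WT libraries in 3 of the 8, against 13.2% of all tested genes. That share includes the 22.2% of tested genes with 0 counts in KO replicate 2, which could not lie above WT. No share was made for genes as abundant as these 8. Acta2, Myh11, Mylk and Cnn1 were lower in KO replicate 2 than in both WT libraries.

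Amot, the published miR-205 target of the family, did not separate the genotypes. The WT libraries had 14.2 and 31.0 CPM, KO replicate 1 had 39.6 CPM and KO replicate 2 had 19.5 CPM. The WT libraries differed from each other 2.18 times and the KO libraries 2.04 times, and KO replicate 2 fell between the WT libraries. This spread was wider than counting error, since WT replicate 1 had 802 counts (exact Poisson 95% interval 747 to 859) and WT replicate 2 had 1846 (1763 to 1932). Such intervals cover counting error only, as amplified reads are not independent molecules. The KO mean was 29.6 ± 14.2 CPM and the WT mean 22.6 ± 11.9 CPM (SD, n = 2). The log2 fold change was 0.39 ± 0.65 (SE), with a 95% interval of -1.27 to 2.05, so levels in KO from 0.414 to 4.13 times those of WT are allowed (edgeR adjusted p = 0.9989). Without KO replicate 2 it was 0.81 ± 0.47 (edgeR adjusted p = 0.9998). A higher fold change than that of Amot was found in 24.0% of tested genes with all 4 libraries and in 9.28% without KO replicate 2. It turned negative without KO replicate 1 (-0.22 ± 0.53) and without WT replicate 1 (-0.07 ± 1.16), and was 1.06 ± 1.33 without WT replicate 2.

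Summed endothelial markers were low in the same libraries as Amot, at 158.4 and 284.2 CPM (WT) against 228.9 and 140.3 CPM (KO). The sum was highest in WT replicate 2, while Amot was highest in KO replicate 1. Of 12 listed markers 11 were measured, and 2 had a positive fold change between genotypes (3 without KO replicate 2). The endothelial cadherin gene Cdh5 stood at 42.0 and 89.9 CPM (WT) against 83.1 and 42.1 CPM (KO), the VEGF receptor gene Flt1 at 24.0 and 53.0 CPM (WT) against 45.2 and 45.9 CPM (KO), and Vwf, von Willebrand factor, at 32.0 and 46.2 CPM (WT) against 36.4 and 21.4 CPM (KO). The markers differed in their order of libraries. Cdh5, Vwf, Eng and Emcn were lower in WT replicate 1 and KO replicate 2 than in the other libraries. Kdr, Esam, Cldn5 and Tie1 were highest in WT replicate 1. Flt1, Plvap and Tek were not lower in KO replicate 2 than in KO replicate 1. Cldn5 was at 0 in KO replicate 2, and Pecam1 was not analysed here. Whether endothelial RNA had a part in the Amot values was not tested. Pericyte markers (8 measured), led by Mcam, Rgs5 and Notch3, summed to 159.6 and 278.5 CPM (WT) against 198 and 225.1 CPM (KO).

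**Figure D2:**
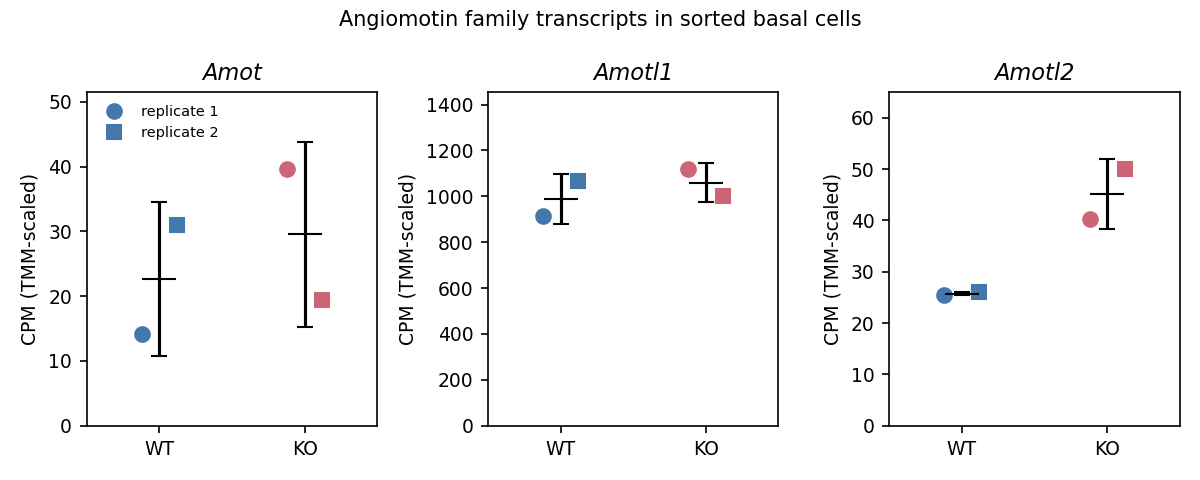
CPM of Amot, Amotl1 and Amotl2 (y axis from 0, scale different for each gene) in the WT and KO libraries, circles for replicate 1 and squares for replicate 2, with mean and SD in black. The KO libraries lie above the WT libraries for Amotl2 (40.4 and 50.0 against 25.5 and 26.0 CPM) and overlap them for Amot and Amotl1.

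Per length, the order of the family was Amotl1, then Amotl2, then Amot in every library. CPM per kb of merged exon, with exon lengths of 10.1, 6.29 and 8.4 kb from GENCODE M21, was 98.3 ± 10.8 in WT and 105 ± 8.39 in KO for Amotl1 (SD, n = 2). It was 4.1 ± 0.0583 and 7.18 ± 1.09 for Amotl2, and 2.69 ± 1.41 and 3.52 ± 1.7 for Amot. In WT replicate 2 the lower 2 were close, at 4.14 for Amotl2 and 3.69 for Amot, so this step in the order was within the spread of Amot. Amotl1 held 90.6% to 94.0% of the summed level per kb. Amotl2 held 4.21% and 3.64% in WT and 5.24% and 7.26% in KO, with no overlap, while Amot held 1.75% and 3.25% in WT and 3.86% and 2.12% in KO. The ratio of Amotl1 to Amotl2 per kb, which library scaling cannot change, was 22.4 and 25.6 in WT and 17.3 and 12.5 in KO. The shares and this ratio rest on the same counts as the Amotl2 fold change above and are not separate evidence. The summed level of the family was 96.5 and 114 CPM per kb in WT and 122 and 110 CPM per kb in KO, and the genotypes overlapped. Counts per gene do not separate the long and short Amot isoforms, of which the short one lacks the YAP-binding region.

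**Figure D3:**
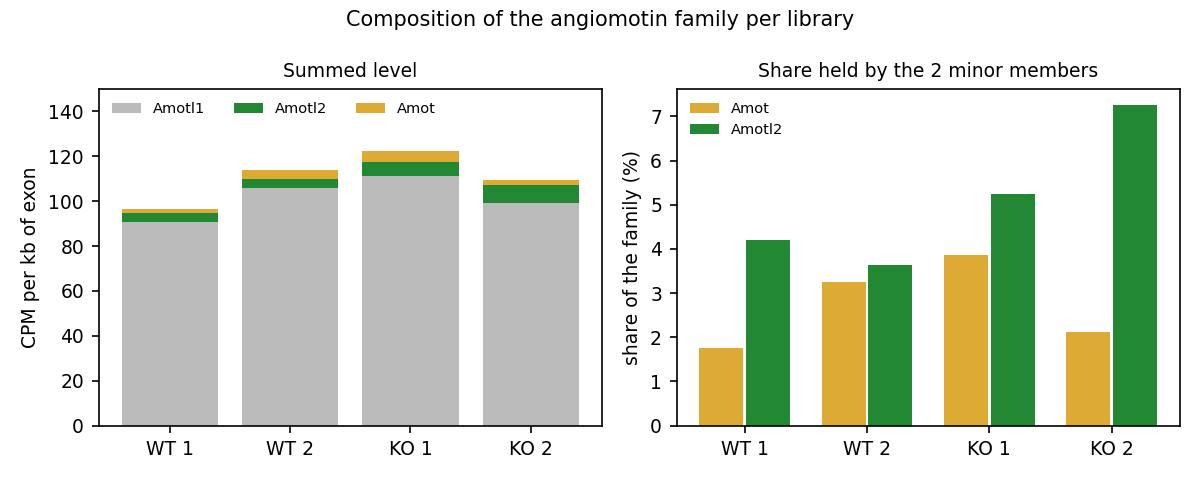
Left, CPM per kb of exon of the 3 members stacked for each library. Right, the share in percent of that sum held by Amot and Amotl2. Amotl1 makes up at least 90.6% of each bar, and the Amotl2 share is 3.64% to 4.21% in WT and 5.24% to 7.26% in KO.

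In the fit over all genes, edgeR called 0 of 15364 genes (0%) at an adjusted p under 0.05, with 147 genes at an unadjusted p under 0.05, and called 0% of 16904 genes without KO replicate 2. DESeq2 called 4 genes and limma voom 0, none of them an angiomotin. The median log2 fold change of all tested genes was -0.14, and 42.8% were positive, so the 3 positive values of the family lay above the median of all genes. Without KO replicate 2 the median was -0.04 and 46.2% were positive, and all 3 members were again positive.

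**Figure D4:**
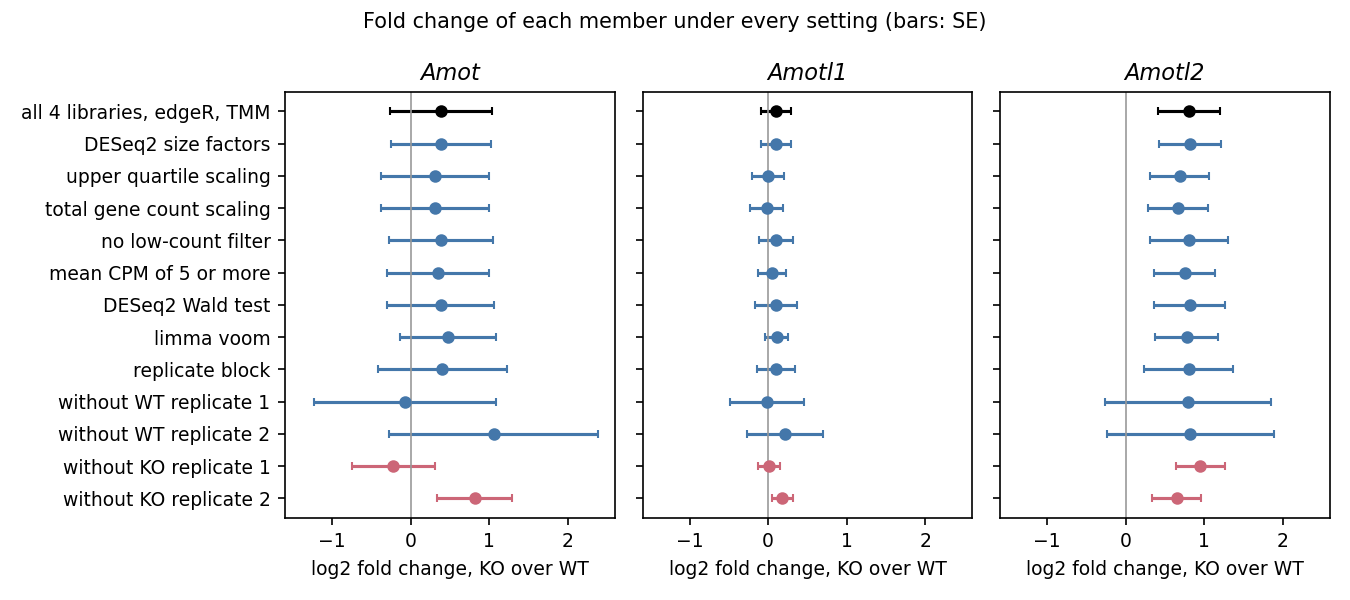
Log2 fold change of KO over WT (x axis) for each member under every setting (rows), with SE bars. Black is the fit on 4 libraries and red the fits that leave out a KO library. Amotl2 stays at 0.65 to 0.95 in each, while Amot runs from -0.22 to 1.06 and Amotl1 from -0.02 to 0.22.

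None of the partners that angiomotins restrain or are restrained by was called, which held for all 15364 genes that edgeR tested. Of the effectors, 5 of 7 tested genes had a positive fold change, with a median of 0.18, and -0.11 without KO replicate 2. Yap1 stood at 416 and 382 CPM (WT) against 367 and 422 CPM (KO), Wwtr1, which encodes TAZ, at 705 and 991 CPM (WT) against 880 and 1046 CPM (KO), and Tead1, their DNA-binding partner, at 667 and 638 CPM (WT) against 588 and 844 CPM (KO). All 3 overlapped between genotypes. On the scale per length, averaged over the 4 libraries, Amotl1 at 102 CPM per kb stood between Wwtr1 at 190 and Yap1 at 42.9, and Amotl2 and Amot at 5.64 and 3.1 stood below both.

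The list of Hippo kinases and scaffolds holds LATS1 and LATS2, which phosphorylate YAP and angiomotins, beside other kinases, cofactors and scaffolds. Its fold changes were split, with 5 of 12 tested genes positive and a median of -0.05 (8 of 12 positive and 0.12 without KO replicate 2). The most abundant were Frmd6, a FERM-domain protein upstream of the kinases, at 596 and 492 CPM (WT) against 659 and 522 CPM (KO), the kinase gene Lats1 at 558 and 516 CPM (WT) against 580 and 450 CPM (KO), and the kinase cofactor gene Mob1a at 455 and 444 CPM (WT) against 437 and 435 CPM (KO). Nf2, Wwc1 and Taok1 were not analysed here. No gene of this list or of the effectors had an unadjusted edgeR p under 0.05, against 0.957% of all tested genes.

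Junction and polarity proteins that angiomotins bind or share complexes with had 10 of 14 positive values and a median of 0.10 (9 of 14 and 0.09 without KO replicate 2). Sdcbp, the syntenin gene, stood at 514 and 619 CPM (WT) against 608 and 719 CPM (KO). Tjp1, the tight junction scaffold ZO-1, stood at 570 and 586 CPM (WT) against 587 and 649 CPM (KO), and Lin7c, a PDZ scaffold, at 360 and 333 CPM (WT) against 375 and 578 CPM (KO). Enzymes that control angiomotin turnover had 7 of 7 positive values and a median of 0.15, but 4 of 7 and 0.04 without KO replicate 2. Among them the ubiquitin ligase gene Nedd4 stood at 1969 and 1758 CPM (WT) against 2362 and 1851 CPM (KO), the deubiquitinase gene Usp9x at 1145 and 1178 CPM (WT) against 1115 and 1326 CPM (KO), and the ligase gene Nedd4l at 490 and 575 CPM (WT) against 521 and 828 CPM (KO). In both lists 0 genes had an unadjusted edgeR p under 0.05 in the fit of 4 libraries. Without KO replicate 2, where 2.8% of all tested genes did, 1 gene of each list had: Mpp5, the polarity scaffold PALS1, and Nedd4, both higher in KO replicate 1.

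Other YAP/TAZ target genes, the group to which Amotl2 belongs and which shares Lats2 with the Hippo list, had 15 of 20 positive values and a median of 0.29, and 14 of 20 and 0.09 without KO replicate 2. In 9 of the 20 both KO libraries lay above both WT libraries, against 13.2% of all tested genes. KO replicate 2, the library with low detection, takes part in both values. Of all tested genes 22.2% had 0 counts in it and so could not lie above WT. No share was made for genes as abundant as these 20, and the part of that library was not tested. Axl, a receptor tyrosine kinase, stood at 552 and 500 CPM (WT) against 558 and 828 CPM (KO), and Ccn1, a matricellular protein, at 387 and 400 CPM (WT) against 469 and 583 CPM (KO). Ccn2, its relative, overlapped, at 571 and 388 CPM (WT) against 660 and 343 CPM (KO). Ptpn14, a phosphatase that binds YAP, stood at 244 and 261 CPM (WT) against 330 and 425 CPM (KO) and had an unadjusted edgeR p of 0.048.

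The Amotl2 promoter held a TEAD core motif. In RefSeq promoters of 300 bases (GRCm38.p6, 250 before and 50 after the start), CATTCC or its reverse complement GGAATG was found once in Amotl2, 65 bases before the start, and not in Amot or Amotl1. The window is shown, motif in capitals, because Amotl2 is the member used as a YAP/TAZ target gene; it lies at chr9:102717727-102717756 on the plus strand and inside an exon of 1 other annotated Amotl2 transcript.
Amotl2 promoter window: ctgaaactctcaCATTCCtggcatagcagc
The same letters occur in 14.7% of the 32851 promoters in the table, so the match is a description and not a site of binding.

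Other published miR-205 targets had 4 of 8 positive values and a median of 0.0049, and 4 of 8 and -0.07 without KO replicate 2. Lrp1, an endocytic receptor, stood at 464 and 541 CPM (WT) against 586 and 888 CPM (KO), Vegfa, a growth factor of blood vessels, at 281 and 351 CPM (WT) against 262 and 266 CPM (KO), and Yes1, a Src-family kinase, at 77.6 and 110 CPM (WT) against 102 and 112 CPM (KO). A 7mer or 8mer match was present in 7 of these 8 genes and absent from Lrp1, against 21.9% of tested genes with an annotated 3' UTR. Whether such matches entered the choice of the published targets was not examined. Both KO libraries lay below both WT libraries in 1 of the 8 and above them in 1, against 19.2% and 13.2% of all tested genes.

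**Figure D5:**
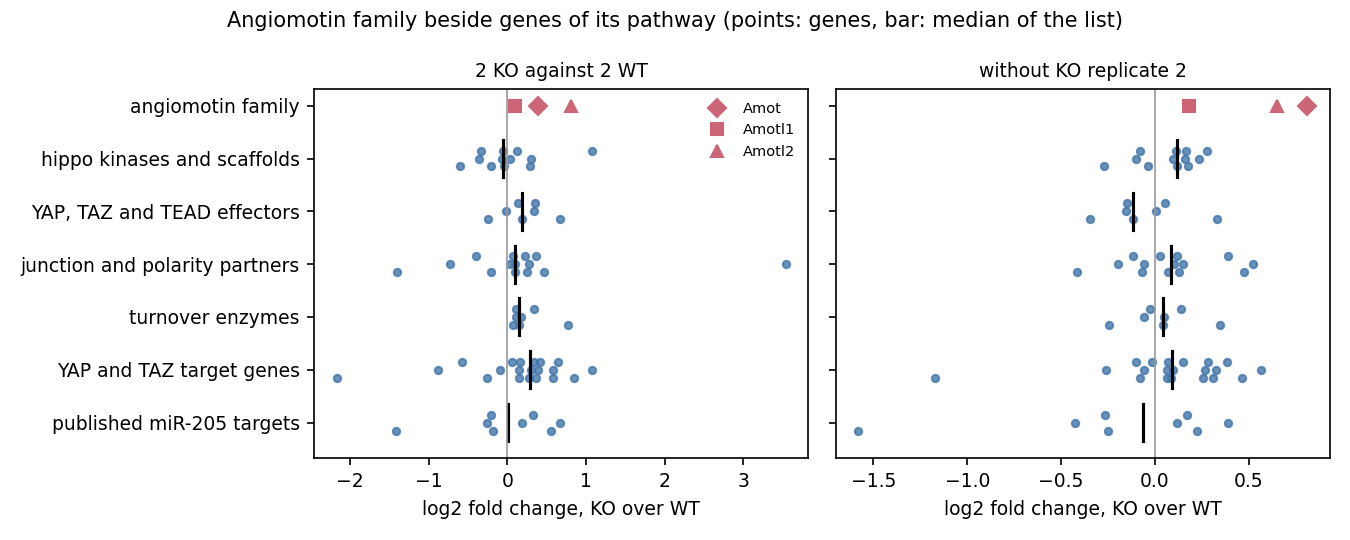
Log2 fold change of KO over WT (x axis) of the angiomotins (red) and of the tested genes of 6 lists (blue points, black bar for the median), left with 4 libraries and right without KO replicate 2. The x scales differ. The medians of the 6 lists run from -0.05 to 0.29 on the left and from -0.11 to 0.12 on the right.

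Genes whose pattern over the 4 libraries lay closest to each member were found by Euclidean distance between centred log2(CPM + 1) values among 8173 protein-coding genes at a mean CPM of 5 or more. For Amotl1 they were Nedd9 (distance 0.0315), Spin1 (0.0376) and Copb1 (0.0386). For Amotl2 they were P3h1 (0.0418), Trir (0.0847) and Arhgef16 (0.0851). For Amot they were Diaph3 (0.189), Rab1b (0.222) and Jph1 (0.245). P3h1, a collagen prolyl hydroxylase, stood at 8.71 and 9.29 CPM (WT) against 14.3 and 18.1 CPM (KO). Diaph3, a formin that assembles actin, stood at 2.57 and 6.96 CPM (WT) against 7.59 and 4.07 CPM (KO). With 4 libraries many genes share a pattern, and likeness here says nothing of shared control.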

How the data were processed

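The deposited files hold raw counts of reads for each Ensembl gene, which the authors made with TopHat2 (2.02) and HTSeq on NCBIM37 (mm9), per the submitters' processing notes. Per the labels' protocols, RNA came from a PicoPure kit and libraries from NuGEN and Illumina protocols. For annotation release and strand setting, the processing is not given in the sources used here. No other annotated gene overlapped an exon of the 3 members (0 in GENCODE M21). Reads outside features were 57.59% to 61.52% of counted lines, and summary lines stayed out of library sizes. Symbols, exon lengths and 3' UTRs came from GENCODE M21 (GRCm38), matched by identifier for 30082 rows (86.9%). Site and promoter coordinates are GRCm38, not the build of the counts.

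The KO against WT test was edgeR's (4.0.16, R 4.3.3; filterByExpr, TMM, quasi-likelihood, genotype only), with Benjamini-Hochberg adjustment over all tested genes and a threshold of 0.05. Intervals use the SE and degrees of freedom of that fit. Alternatives were DESeq2 1.42.0, limma 3.58.1 voom, other scalings and filters, a replicate block and each library left out, with the spread of a lone library taken from the rest. The procedure was tested on simulated counts, and the recovery of planted changes is not reported here. Members and lists were chosen with earlier results of these data known. Of each list, the 3 tested genes of highest mean CPM and those with an unadjusted p under 0.05 were named, and other list genes named were chosen after their values were seen. No chance test was made over lists, and 1 listed gene is not reported here. Tables used pandas 2.3.3 and scipy 1.17.1.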

Additional observations from a re-analysis of the deposited data

How the results depend on the processing

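The Amotl2 log2 fold change kept its direction and stayed short of the threshold under all 12 alternatives, from 0.65 to 0.95. Amot kept its direction under 10 of 12, and leaving out 1 library gave -0.22 to 1.06, negative without KO replicate 1 and without WT replicate 1 (-0.07). Amotl1 kept its direction under 9 of 12; it was -0.0069 with upper quartile scaling, -0.02 with total gene count scaling, and -0.011 to 0.22 with 1 library left out, negative without WT replicate 1. The median of all genes was -0.23 and -0.24 under those scalings. No member was called under any alternative. The count of called genes was 0 except for 4 with the DESeq2 test and 0 to 5724 with 1 library left out, 5724 without KO replicate 1. The cause was not tested. With the replicate block 0 genes were called, 79 had an unadjusted p under 0.05, and the log2 fold changes were 0.40, 0.10 and 0.80 for Amot, Amotl1 and Amotl2. The labels do not say that numbers mark a shared batch, and deviations of same-numbered libraries had a correlation of 0.0231 across genes. The seed matches to miR-205-5p numbered 1 per member in the longest 3' UTR and in all annotated 3' UTRs. The biological coefficient of variation was 0.932 with 4 libraries and 0.608 without KO replicate 2.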

Other observations

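The other arm of the hairpin, miR-205-3p (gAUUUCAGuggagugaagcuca, seed in capitals), had no match of 7 or more bases in the longest 3' UTR of any member. Amot held 2 matches to the 6mer TGAAAT, and Amotl1 and Amotl2 held 0. Among tested genes with an annotated 3' UTR, 44.1% held at least the 6mer.

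Immune markers (9 measured) summed to 65.2 and 146.5 CPM (WT) against 79.4 and 317.6 CPM (KO). Most of this was Cd74, at 56.1 and 136 CPM (WT) against 71.9 and 289 CPM (KO). Of 8 tested immune markers 3 had a positive fold change and 5 a negative one (2 and 6 without KO replicate 2). Luminal markers (11 measured), led by Epcam, Krt8 and Krt18, summed to 1000.8 and 1495.4 CPM (WT) against 1102.8 and 1601.9 CPM (KO). Of these 11, 4 had a positive fold change and 7 a negative one (1 and 10 without KO replicate 2). Both KO libraries lay above both WT libraries in 0 of the 11 and below them in 3, against 13.2% and 19.2% of all tested genes.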
